A study of Mus musculus with 9 samples.

Results

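RNAseq of 9 mammary tumors, all of mice with the genotype Brca1Co/Co;MMTV-Cre;p53+/-, was examined for 10 genes of the Notch pathway, chosen by name from the 35275 genes in the table of counts. They were the receptors *Notch1*, *Notch2* and *Notch4*, the ligands *Jag1*, *Jag2*, *Dll1* and *Dll4*, and the target genes *Hes1*, *Hey1* and *Heyl*. Of the 9 tumors, 3 came from mice given saline, 3 from mice given free Talazoparib, a PARP inhibitor, into a vein (i.v. TLZ), and 3 from mice given Talazoparib in nano-liposomes into a vein (NanoTLZ). Talazoparib was given at 0.33 mg/kg, and all groups received 5 doses at 3 per week. All 9 tumors shared the genotype, in which Cre is driven by the MMTV promoter and acts mainly in mammary epithelium, and vessels and other stroma are not its usual site of action. The free drug was given in saline with some DMSO, and no tumor given empty liposomes is among the 9, so in NanoTLZ the effects of drug and carrier cannot be told apart. The 3 tumors of a group came from 3 mice. The labels give no age.

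Notch receptors are membrane proteins that are activated by ligands on a neighbouring cell. Binding of a Jagged or Delta-like ligand leads to cleavage of the receptor by ADAM proteases and then by gamma-secretase, and the freed intracellular part enters the nucleus and, with the DNA-binding protein RBPJ and Mastermind co-activators, switches on genes such as those of the Hes and Hey repressors. In the mammary gland the pathway takes part in the choice between luminal and basal epithelial fates, and in blood vessels *Notch4* and *Dll4* are best known from endothelial cells, where DLL4 restrains sprouting.

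Levels are given as CPM, the counts of a gene scaled to a common library size with the TMM method, and all 10 genes passed the filter on low counts that left 15821 genes for testing. Total counts per tumor were 17538380 to 21194980. The 10 genes had between 108 and 7158 counts in a tumor. All 7 epithelial markers checked were detected, with a summed level of 3586 to 8375 CPM over the 9 tumors. Among the other marker lists, only the sum of skeletal muscle genes separated all saline from all treated tumors. The 6 skeletal muscle genes summed to 16.3 to 446 CPM in saline and to 1.68 to 4.02 CPM in the 6 treated tumors, and the 10 proliferation genes to 576 to 2124 CPM in saline, highest in A3688, and to 334 to 727 CPM in the treated tumors. Over the 9 tumors the sums were 283 to 433 CPM for mural, 818 to 4940 CPM for fibroblast, 123 to 587 CPM for immune and 0.569 to 25.7 CPM for adipocyte genes. *Brca1* was at 9.46 to 42.7 CPM and *Trp53* at 23.4 to 108 CPM, which does not check the genotype, since no tumor or tissue without it was included. In bulk tumor RNA, fewer cells of a type and less RNA per cell cannot be told apart.

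None of the 10 genes was significantly changed by i.v. TLZ, by NanoTLZ or by both taken as a mean, or differed between NanoTLZ and i.v. TLZ, at an adjusted p under 0.05 (quasi-likelihood test of edgeR, with p-values adjusted over all tested genes by Benjamini-Hochberg). The share of all tested genes called by this rule was 0% for i.v. TLZ against saline, 0.00632% for NanoTLZ against saline, 0% for NanoTLZ against i.v. TLZ and 0.019% for the mean of both treated groups against saline. Few genes of any kind were thus called by edgeR. DESeq2 called none of the 10 either, although it called more genes over the whole table in each comparison. Its counts are given below with the dependence on the processing. *Jag1* was the only member with an unadjusted p under 0.05, and the only one whose treated and saline tumors did not overlap. *Jag2* had the widest spread of the 10, with 1 saline tumor far above the others. *Notch4* and *Dll4* were the pair whose levels were most closely correlated over the 9 tumors. With the group means subtracted their r was 0.84, and that of *Notch1* and *Heyl* was larger in size, at -0.86.

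The promoter windows of 3 genes are shown because the results turn on these genes: *Jag1*, whose treated tumors were all above saline, and *Notch4* and *Dll4*, whose levels were most closely correlated. They run from 250 bases before to 50 bases after the start site in RefSeq on GRCm38.p6, and are written 5′ to 3′ on the strand of the gene. Capitals mark a match to one of 3 motifs.
Jag1, chr2:137116471-137116770, minus strand: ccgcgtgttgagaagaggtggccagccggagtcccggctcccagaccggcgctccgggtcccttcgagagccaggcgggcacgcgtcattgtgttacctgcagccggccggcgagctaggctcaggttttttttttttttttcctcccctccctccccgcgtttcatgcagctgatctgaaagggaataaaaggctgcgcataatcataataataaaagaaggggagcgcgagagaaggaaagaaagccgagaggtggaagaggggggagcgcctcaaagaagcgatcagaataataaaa
Notch4, chr17:34564045-34564344, plus strand: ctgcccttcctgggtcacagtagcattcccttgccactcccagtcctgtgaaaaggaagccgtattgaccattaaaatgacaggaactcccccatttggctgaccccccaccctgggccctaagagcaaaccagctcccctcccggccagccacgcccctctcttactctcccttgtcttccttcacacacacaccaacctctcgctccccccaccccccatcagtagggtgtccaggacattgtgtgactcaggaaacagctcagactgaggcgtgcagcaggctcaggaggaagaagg
Dll4, chr2:119325534-119325833, plus strand: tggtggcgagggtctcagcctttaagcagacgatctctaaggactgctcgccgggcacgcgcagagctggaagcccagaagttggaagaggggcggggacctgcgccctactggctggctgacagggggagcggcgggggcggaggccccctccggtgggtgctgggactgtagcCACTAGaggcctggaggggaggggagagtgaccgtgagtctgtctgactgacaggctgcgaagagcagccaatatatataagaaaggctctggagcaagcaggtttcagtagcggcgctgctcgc

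The motifs searched on both strands were GTGGGAA for RBPJ, CCGGAA for ETS factors and CACNAG for the N-box bound by Hes repressors. RefSeq windows were found for 7 of the 10 genes, with 2 for *Dll1*, and not for *Hes1*, *Hey1* and *Heyl*. None of the 8 windows held the RBPJ or the ETS letters, which 6.38% and 14.9% of 32851 mouse promoters of the same length held. The N-box letters, held by 42.5% of promoters, were found at 1 place in *Dll4*, 75 bases before the start site and shown in capitals, and not in *Jag1* or *Notch4*. They were also present in *Notch1*, *Notch2* and 1 of the 2 *Dll1* windows. These matches are letters in a window and show no binding. The windows were rich in G and C, from 55.67% in *Jag1* to 86.0% in *Jag2*, against a median of 52.67% over all promoters.

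**Figure D1:**
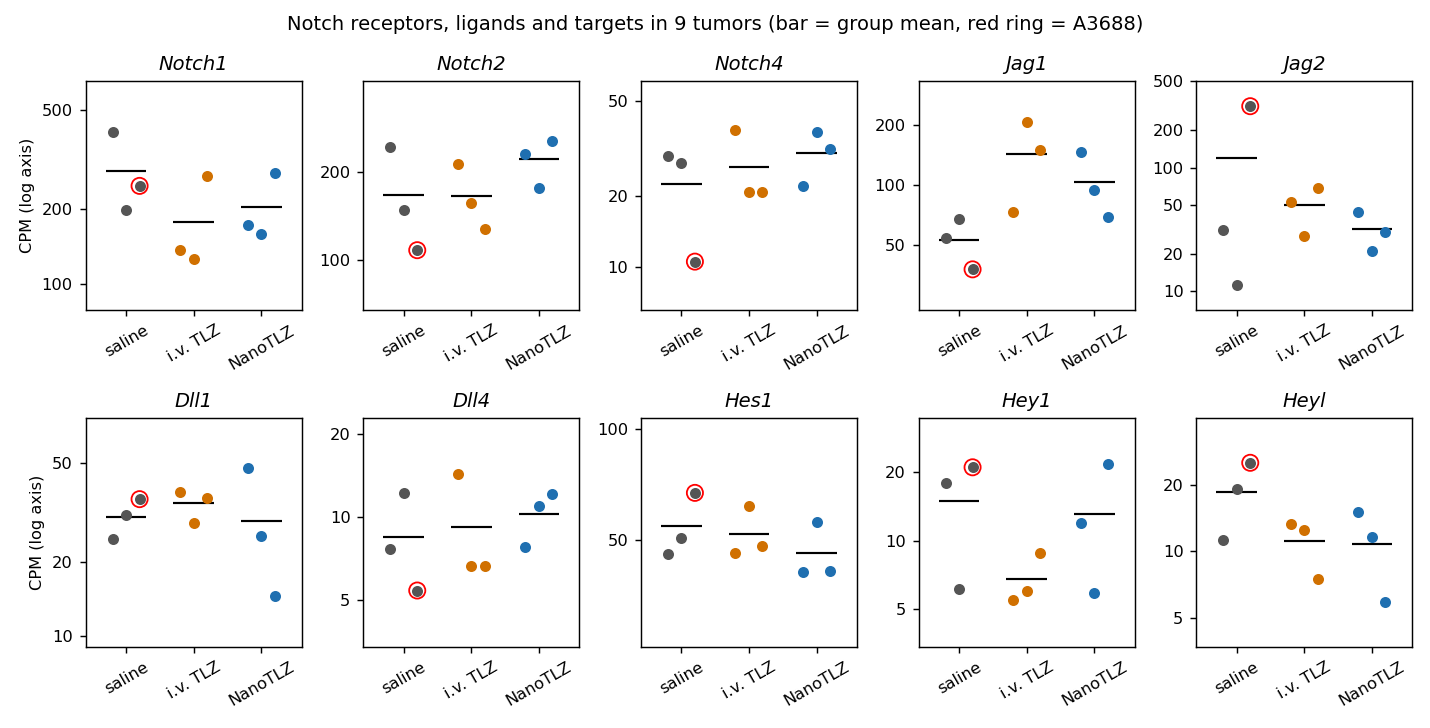
Level of each of the 10 genes in CPM (vertical log axis, with its own range for each gene) in the 9 tumors, grouped on the horizontal axis as saline, i.v. TLZ and NanoTLZ; points are tumors, bars are group means (n = 3) and a red ring marks the saline tumor A3688. The *Jag1* points of both treated groups lie above all 3 saline points, *Jag2* in A3688 stands far above the other tumors at 314 CPM, and the groups of the other genes overlap.

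Among the receptors, *Notch1* (chr2:26457903-26516663, minus strand, positions on GRCm38 here and below), a receptor of epithelial and T cells, was at 409.6, 198 and 248 CPM in the saline tumors A3673, A3685 and A3688. It was at 137, 125 and 271 CPM in the i.v. TLZ tumors B3638, B3684 and B3700, and at 172, 159 and 279.9 CPM in the NanoTLZ tumors C3519, C3669 and C3698. In each treated group 1 tumor lay among the saline values, so the groups overlapped. Its mean was 1.6-fold lower with i.v. TLZ (log2 fold change -0.68, SE 0.41, adjusted p = 0.571) and 1.40-fold lower with NanoTLZ (log2 fold change -0.49, SE 0.41, adjusted p = 0.71). These differences were within the spread between tumors.

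*Notch2* (chr3:98013527-98150361, plus strand), a receptor found in many tissues, was at 244, 149 and 108 CPM after saline, at 212, 156 and 128 CPM after i.v. TLZ and at 231, 176 and 254.5 CPM in NanoTLZ. The lowest NanoTLZ tumor was above 2 of the 3 saline tumors. The log2 fold change was -0.011 (SE 0.35, adjusted p = 0.993) with i.v. TLZ and 0.40 (SE 0.35, adjusted p = 0.718) with NanoTLZ. The mean level with i.v. TLZ, 165 ± 43.0 CPM (SD, n = 3), was close to that in saline, 167 ± 69.5 CPM (SD, n = 3), but the 95% interval of the difference, -0.79 to 0.76 on the log2 scale, does not show that they were equal.

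*Notch4* (chr17:34564268-34588503, plus strand), the receptor best known from endothelium, was at 29.4, 27.5 and 10.6 CPM in saline. It was at 37.9, 20.8 and 20.8 CPM in i.v. TLZ and at 21.95, 37.2 and 31.3 CPM in NanoTLZ. The lowest value was that of A3688 and the highest that of B3638, in different groups. The fitted log2 fold change was 0.24 (SE 0.43, adjusted p = 0.874) with i.v. TLZ and 0.42 (SE 0.43, adjusted p = 0.765) with NanoTLZ.

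Of the ligands, *Jag1* (chr2:137081456-137116644, minus strand), which encodes Jagged1, had its lowest values in the control tumors. It was at 53.9, 67.4 and 37.7 CPM after saline, at 72.9, 206 and 149 CPM in i.v. TLZ and at 146, 94.4 and 68.8 CPM in NanoTLZ. Each of the 6 treated tumors was above every saline tumor, but the lowest treated tumor, C3698, and the highest saline tumor, A3685, lay close together, at 68.8 and 67.4 CPM. The group means were 53.0 ± 14.9 CPM for saline, 143 ± 66.9 CPM for i.v. TLZ and 103 ± 39.3 CPM for NanoTLZ (SD, n = 3 each). With i.v. TLZ it was 2.69-fold higher, a log2 fold change of 1.43 (SE 0.43, 95% interval 0.47 to 2.38, adjusted p = 0.42). With NanoTLZ it was 1.94-fold higher, a log2 fold change of 0.96 (SE 0.42, 95% interval 0.015 to 1.90, adjusted p = 0.553). For the mean of both treated groups the log2 fold change was 1.19 (SE 0.38, adjusted p = 0.288).

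The *Jag1* difference did not pass the adjusted threshold in any of these comparisons. An unadjusted p under 0.05 in the higher direction was found for 1 of the 10 genes, *Jag1*, in each of the 3 comparisons with saline. Over all tested genes the shares were 4.91% for i.v. TLZ, 3.51% for NanoTLZ and 4.8% for the mean of both. In the lower direction it was found for none of the 10, against 5.47%, 5.49% and 8.29% of all tested genes. Groups did not overlap for 1 of the 10 genes, *Jag1*, in each comparison with saline, against 11.2% of all tested genes for i.v. TLZ, 15.9% for NanoTLZ and 5.47% for the mean of both. A count of 1 in 10 is close to these shares, so it is not a result about the 10 genes as a group. Both treated groups were compared with the same saline tumors, so the comparisons are not independent. The summed skeletal muscle genes did not overlap between saline and treated tumors either, and over the 9 tumors the *Jag1* level was inversely related to their sum (Pearson's r = -0.73, Spearman's rho = -0.85, n = 9, exact permutation p = 0.0219 and 0.00607, adjusted p = 0.198 and 0.22 over 80 relations). Without the 2 tumors farthest from the median of the muscle sum r was -0.63, and within groups, with their means subtracted, it was -0.28. The part of muscle or proliferation genes in the *Jag1* difference was not tested. Leaving out each tumor in turn gave *Jag1* log2 fold changes of 1.06 to 1.74 with i.v. TLZ, the lowest without B3684, and 0.62 to 1.21 with NanoTLZ, the lowest without C3519.

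*Jag2* (chr12:112907819-112929776, minus strand), which encodes Jagged2, had the widest spread. It was at 31.2, 11.2 and 314 CPM after saline, at 52.5, 27.8 and 67.6 CPM after i.v. TLZ and at 43.2, 21.0 and 30.3 CPM in NanoTLZ. The value of A3688 rested on 6848 counts and was 28.2 times that of A3685, while the other 8 tumors were between 11.2 and 67.6 CPM. Its log2 fold change was -1.27 (SE 0.96, adjusted p = 0.644) with i.v. TLZ, -1.92 (SE 0.97, adjusted p = 0.573) with NanoTLZ and -1.59 (SE 0.78, adjusted p = 0.412) for the mean of both. Without A3688 the direction turned, to 1.23, 0.61 and 0.92. A3688 was also the tumor with the highest summed proliferation and skeletal muscle genes. Among the epithelial markers, *Krt5* was at 1849 CPM in A3688, against 2.30 to 72.9 CPM in the other 8 tumors. *Krt19* was lowest in A3688, at 31.2 CPM against 173 to 702 CPM. *Krt14*, at 802 CPM in A3688, lay within the range of the others, 122 to 2584 CPM. The part of any of these genes in the *Jag2* level of A3688 was not tested.

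**Figure D2:**
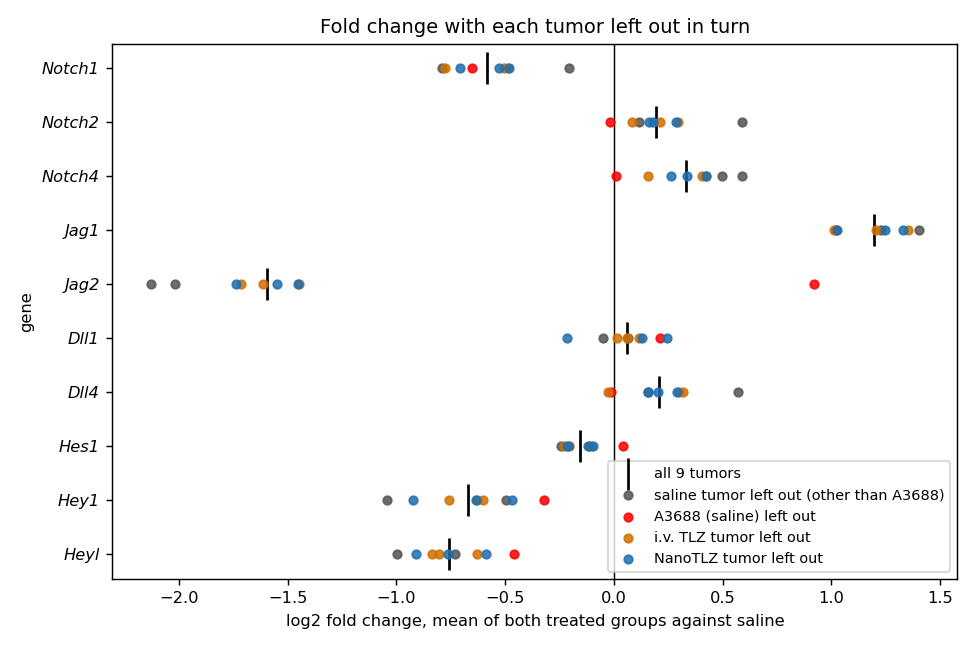
Log2 fold change of the mean of both treated groups against saline (horizontal axis) for each gene (vertical axis), with all 9 tumors (black tick) and with each tumor left out in turn (points, coloured by the group of the tumor left out, with A3688 in red). *Jag1* stays between 1.01 and 1.40, while *Jag2* goes from -1.59 to 0.92 when A3688 is left out.

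*Dll1* (chr17:15367354-15376872, minus strand), which encodes a Delta-like ligand, was at 24.7, 30.7 and 35.8 CPM after saline, at 38.4, 28.5 and 36.3 CPM after i.v. TLZ and at 47.8, 25.3 and 14.4 CPM in NanoTLZ. The highest and the lowest of the 9 values were both in NanoTLZ. The log2 fold change was 0.18 (SE 0.41, adjusted p = 0.899) with i.v. TLZ and -0.059 (SE 0.41, adjusted p = 0.976) with NanoTLZ.

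*Dll4* (chr2:119325784-119335962, plus strand), the Delta-like ligand of sprouting vessels, had the lowest mean level per kilobase of exon among the ligands. It was at 7.67, 12.2 and 5.41 CPM after saline, at 14.3, 6.61 and 6.65 CPM after i.v. TLZ and at 7.80, 10.97 and 12.1 CPM in NanoTLZ. As for *Notch4*, the lowest value was that of A3688 and the highest that of B3638. The fitted log2 fold change was 0.13 (SE 0.46, adjusted p = 0.941) with i.v. TLZ and 0.29 (SE 0.46, adjusted p = 0.862) with NanoTLZ.

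Among the targets, *Hes1* (chr16:30064384-30067796, plus strand), a repressor of transcription that is switched on by Notch and by other signals, varied least. It was at 45.9, 50.7 and 67.2 CPM after saline, at 46.1, 61.8 and 48.2 CPM after i.v. TLZ and at 41.0, 56.1 and 41.1 CPM in NanoTLZ. The SD of its log2 CPM over the 9 tumors was 0.25, and only 5.45% of tested genes had a smaller one. For comparison, the SD was 1.34 for *Jag2*, with 91.8% of tested genes below it, and 0.55 for the median tested gene. The log2 fold change of *Hes1* was -0.069 (SE 0.27, adjusted p = 0.944) with i.v. TLZ and -0.25 (SE 0.27, adjusted p = 0.783) with NanoTLZ. The 95% intervals, -0.67 to 0.53 and -0.84 to 0.35, both lie within a 2-fold change in either direction.

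*Hey1* (chr3:8663359-8667256, minus strand), a repressor that acts in vessels and heart, was at 17.9, 6.15 and 21.1 CPM after saline, at 5.48, 6.01 and 8.82 CPM after i.v. TLZ and at 11.9, 5.89 and 21.7 CPM in NanoTLZ. Of the i.v. TLZ tumors, 2 were below every saline tumor, and B3700 was above A3685. Its log2 fold change was -1.15 (SE 0.57, 95% interval -2.43 to 0.12, adjusted p = 0.513) with i.v. TLZ and -0.19 (SE 0.56, adjusted p = 0.934) with NanoTLZ.

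*Heyl* (chr4:123233556-123249875, plus strand), a related repressor found in vascular smooth muscle, was at 11.2, 19.2 and 25.1 CPM after saline, at 13.3, 12.5 and 7.47 CPM after i.v. TLZ and at 14.97, 11.6 and 5.90 CPM in NanoTLZ. In both treated groups all tumors were below A3685 and A3688, and A3673 lay among them. The log2 fold change was -0.74 (SE 0.45, adjusted p = 0.577) with i.v. TLZ and -0.78 (SE 0.46, adjusted p = 0.608) with NanoTLZ. Over the 9 tumors *Heyl* was related to the summed skeletal muscle genes (r = 0.79, rho = 0.72, exact permutation p = 0.0129 and 0.0369, adjusted p = 0.198 and 0.369 over 80 relations). This r was 0.74 with the group means subtracted, 0.64 without A3688 and 0.36 without the 2 farthest tumors. For the adipocyte genes, whose sum was low, r was 0.59 and rho 0.83 (adjusted exact permutation p = 0.448 and 0.22). That r was 0.78 with the group means subtracted and 0.84 without the 2 farthest tumors. For the mural genes r was 0.62 and rho 0.63 (adjusted exact permutation p = 0.404 and 0.434). The 7 mural genes include *Notch3*, itself a Notch receptor, at 77.9 to 135 CPM, so their sum is not independent of the pathway. The part of muscle, adipocyte or mural genes in the *Heyl* difference was not tested. All 3 targets had a negative log2 fold change in both comparisons, with a median of -0.74 with i.v. TLZ and -0.25 with NanoTLZ, and none passed the test. The median of all tested genes was -0.034 and -0.085, and of these 15821 genes 8298 and 8874 had a negative log2 fold change. The other 2 tested target genes of the pathway, *Hey2* and *Nrarp*, went the other way. Both had a positive log2 fold change in both comparisons, with a median of 0.43 with i.v. TLZ and 0.12 with NanoTLZ, and neither passed the test. The signs of the targets thus do not point in 1 direction.

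**Figure D3:**
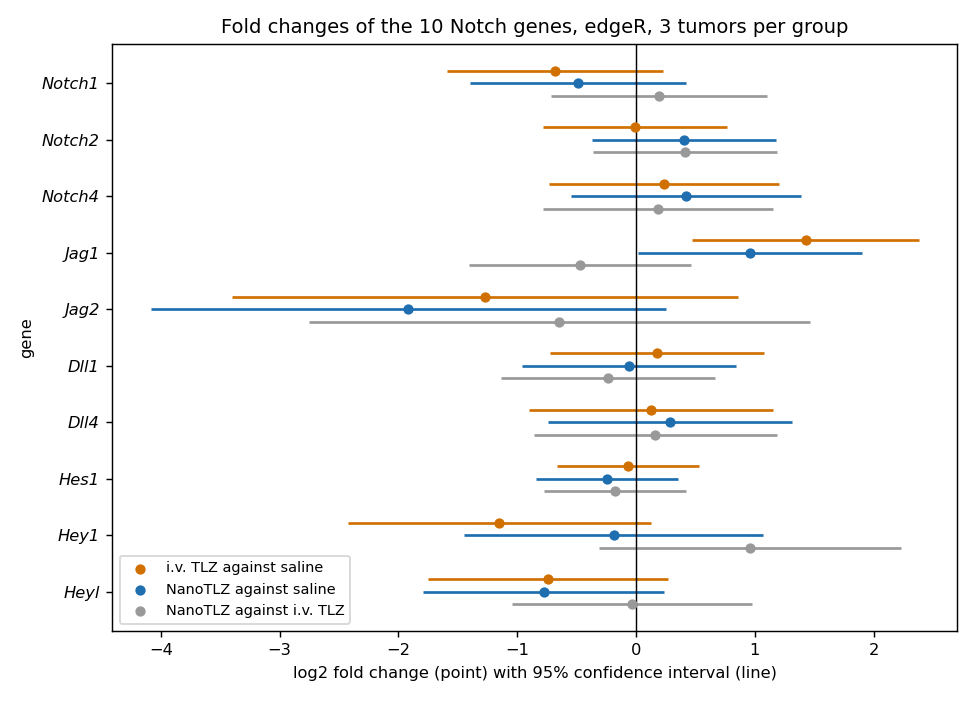
Log2 fold change (points) with its 95% confidence interval (lines) on the horizontal axis for each of the 10 genes (vertical axis), for i.v. TLZ against saline, NanoTLZ against saline and NanoTLZ against i.v. TLZ. The intervals of *Jag1* against saline lie above 0, from 0.47 and from 0.015, and all other intervals include 0.

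The question whether the nano-liposome form differed from the free drug was addressed by comparing NanoTLZ with i.v. TLZ at the same dose and time. No member passed the test, and the adjusted p was 0.9999 for each of the 10 genes. None had an unadjusted p under 0.05, against 0.449% of all tested genes in the higher and 1.23% in the lower direction, and none had groups that did not overlap, against 7.61%. The largest difference was that of *Hey1*, which was 1.95-fold higher with NanoTLZ (log2 fold change 0.96, 95% interval -0.31 to 2.23). *Jag1* was 1.39-fold lower with NanoTLZ than with i.v. TLZ (log2 fold change -0.47, 95% interval -1.41 to 0.47). The interval was narrowest for *Hes1*, from -0.77 to 0.42, and widest for *Jag2*, from -2.76 to 1.46, so these data do not show that both forms acted alike on these genes.

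Levels of different genes were compared per kilobase of exon. The order of the means over the 9 tumors, in CPM per kilobase with the SD, was *Hes1* at 25.0 ± 4.45, *Jag1* at 17.1 ± 9.52, *Notch2* at 17.1 ± 4.92, *Notch1* at 15.6 ± 6.34, *Jag2* at 9.55 ± 13.6, *Dll1* at 7.43 ± 2.28, *Hey1* at 3.57 ± 2.08, *Notch4* at 3.27 ± 1.09, *Heyl* at 2.63 ± 1.15 and *Dll4* at 2.42 ± 0.812 (n = 9 each). Among neighbours in this order, only *Dll1* and *Hey1* differed by more than the larger SD, with *Dll1* higher in 8 of 9 tumors. With the length of the longest transcript in place of all exons, *Notch1* moved to 23.4 and *Hes1* to 34.7 CPM per kilobase, so the order of the upper genes depends on the length used.

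The make-up of each class was compared within tumors on the same scale. *Notch1* and *Notch2* together made up most of the level of the 3 receptors, with *Notch4* at 4.6% to 14.4%. *Notch1* was above *Notch2* in A3673, A3685, A3688 and B3700 and below it in the other tumors. In A3685 both were nearly equal, at 13.88 and 13.79 CPM per kilobase. The order of these 2 genes within a tumor may also depend on the length used. Among the 4 ligands, *Jag1* had the largest share in 8 of the 9 tumors, from 38.1% to 74.0%. In A3688 its share was 10.5% and that of *Jag2* was 73.4%. *Hes1* made up 72.1% to 87.6% of the 3 targets in every tumor.

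**Figure D4:**
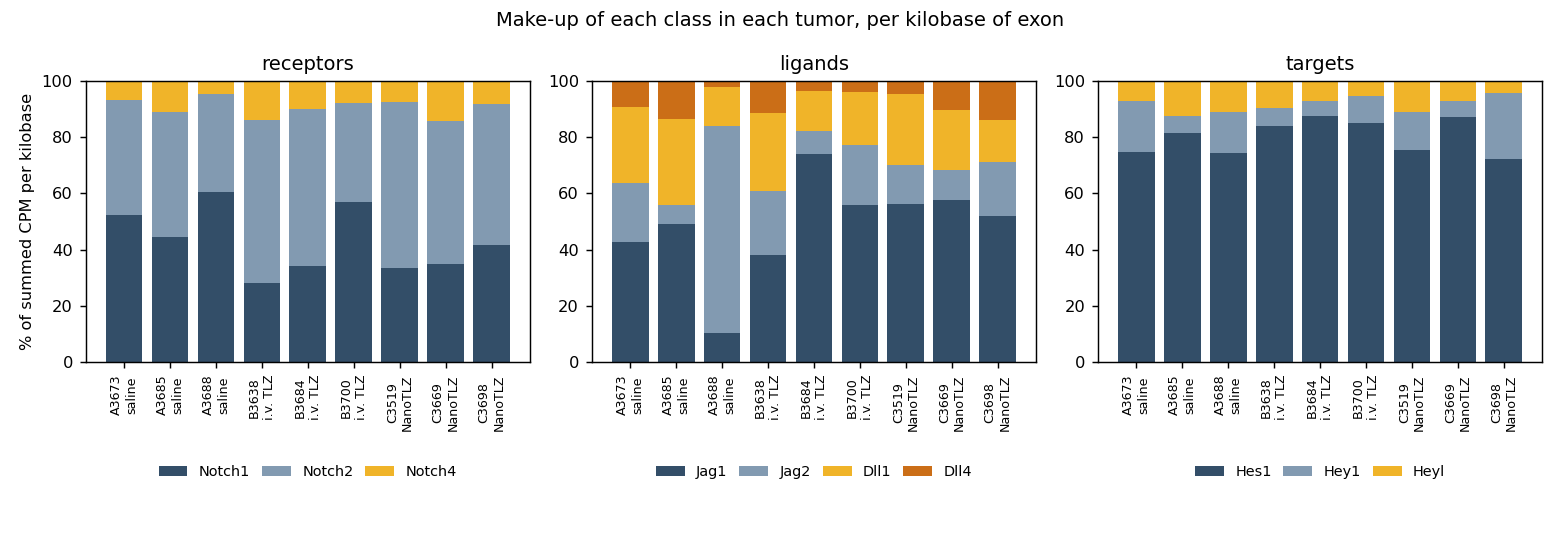
Share of each gene in the summed CPM per kilobase of its class (vertical axis, %), for the receptors, the ligands and the targets, in each of the 9 tumors (horizontal axis). *Jag1* is the largest ligand share in 8 tumors, *Jag2* takes 73.4% in A3688, and *Hes1* is the largest target share in all 9.

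*Notch4* and *Dll4* were the pair of members with the highest correlation of log2 CPM over the 9 tumors (Pearson's r = 0.85, exact permutation p = 0.00206; Spearman's rho = 0.85, exact permutation p = 0.00607). After adjustment over the 45 pairs the exact permutation p was 0.0926 for r and 0.207 for rho, so the pair did not pass 0.05. The coefficient was 0.86 without the 2 tumors farthest from the median, 0.84 with the group means subtracted and 0.83 without A3688. *Notch1* and *Heyl* had r = -0.86 with the group means subtracted, larger in size than 0.84, but -0.27 over the 9 tumors. Over the 9 tumors the next largest coefficients were those of *Notch2* with *Hes1* (r = -0.79, rho = -0.80, adjusted exact permutation p = 0.298 and 0.207) and *Notch1* with *Hey1* (r = 0.77, rho = 0.80, adjusted exact permutation p = 0.298 and 0.207). Without the 2 farthest tumors they were -0.65 and 0.81. *Notch1* and *Hey1* were each also related to the summed proliferation genes (r = 0.61 and 0.66, rho = 0.72 and 0.70). None of these had an adjusted exact permutation p under 0.05. Without the 2 tumors farthest from the median of that sum these r were 0.63 and 0.28. The part of proliferation genes in the pair was not tested. CPM share the library total of each tumor.

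The 10 endothelial genes, *Pecam1*, *Cdh5*, *Kdr*, *Tek*, *Tie1*, *Emcn*, *Esam*, *Cldn5*, *Robo4* and *Egfl7*, were all detected, and their sum was correlated with the levels of both genes. The sum was 104 to 201 CPM over the saline tumors, 110 to 241 CPM over those given i.v. TLZ and 206 to 270.2 CPM over those given NanoTLZ. The correlation with this sum was 0.80 for *Notch4* (rho = 0.85, adjusted exact permutation p = 0.198 and 0.22) and 0.87 for *Dll4* (rho = 0.78, adjusted exact permutation p = 0.198 and 0.276), with 80 relations of members and marker lists in the family. With the group means subtracted r was 0.83 and 0.92, without A3688 it was 0.78 and 0.82, and without the 2 farthest tumors it was 0.70 and 0.77. All 10 endothelial genes had a positive log2 fold change with NanoTLZ against saline, with a median of 0.60, but 1 had an unadjusted p under 0.05 and none was called. Positive too were all 4 tested immune genes, with a median of 0.94, and 4 of 5 fibroblast genes, with a median of 0.60. Most epithelial, mural, skeletal muscle and proliferation genes had a negative one. Of all 15821 tested genes, 6947 had a positive one. The log2 fold changes of *Notch4* and *Dll4* in that comparison, 0.42 and 0.29, were positive. The part of endothelial or other cells in them was not tested. Other marker lists were related to the pair with coefficients of like size. The summed proliferation genes were inversely related to *Notch4* (r = -0.79, rho = -0.63, adjusted exact permutation p = 0.198 and 0.434) and to *Dll4* (r = -0.74, rho = -0.58, adjusted exact permutation p = 0.198 and 0.508). With the group means subtracted these r were -0.84 and -0.87, without A3688 -0.39 and -0.60, and without the 2 farthest tumors -0.72 and -0.64. The summed immune genes were related to *Dll4* (r = 0.79, rho = 0.80, adjusted exact permutation p = 0.198 and 0.276) and to *Notch4* (r = 0.72, rho = 0.63, adjusted exact permutation p = 0.198 and 0.434). With the group means subtracted these r were 0.81 and 0.66, without A3688 0.69 and 0.38, and without the 2 farthest tumors 0.58 and 0.11. None of these relations passed 0.05 after adjustment, and the levels of *Notch4* and *Dll4* cannot be assigned to 1 list from them.

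**Figure D5:**
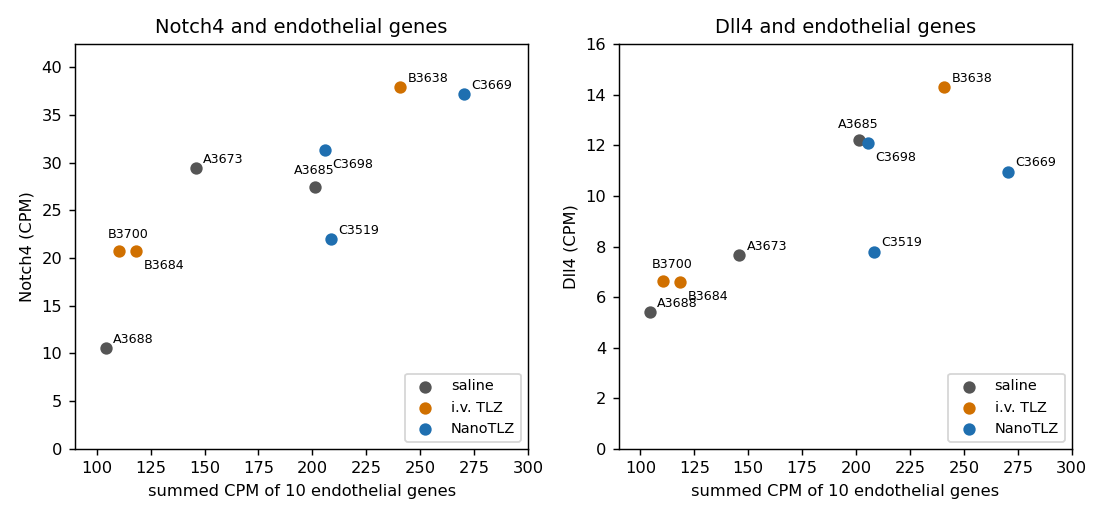
Level of *Notch4* (left) and *Dll4* (right) in CPM on the vertical axis against the summed CPM of 10 endothelial genes on the horizontal axis; each point is 1 of the 9 tumors, coloured by group. A3688 is lowest on both axes in both panels, and the NanoTLZ tumors lie at 206 or more on the horizontal axis.

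The rest of the pathway was examined in a list of 49 other genes, of which 47 were tested. *Dlk1* and *Hes5*, a Notch target of neural tissue with 1 count in all 9 tumors, did not pass the filter. None of the 47 was called in any comparison by edgeR, and none of the list by DESeq2 or another alternative run. An unadjusted p under 0.05 was found for 2 higher and 1 lower gene with i.v. TLZ, 1 higher and 1 lower with NanoTLZ, 1 higher and 0 lower between NanoTLZ and i.v. TLZ, and 3 higher and 2 lower for the mean of both treated groups. Over all tested genes the shares, higher and lower, were 4.91% and 5.47%, 3.51% and 5.49%, 0.449% and 1.23%, and 4.8% and 8.29% in the same order. Counts this small beside such shares are not a result about the 47 genes as a group. The median log2 fold change of the 47 genes was -0.12, -0.036, 0.0028 and -0.055 in these comparisons, beside -0.034, -0.085, -0.036 and -0.055 for all tested genes.

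In the mean of both treated groups, *Numbl*, a relative of the Notch inhibitor Numb, had a log2 fold change of 0.97 (SE 0.36, adjusted p = 0.326), from 21.7 ± 9.64 CPM in saline to 45.8 ± 19.1 in i.v. TLZ and 39.6 ± 3.74 in NanoTLZ (SD, n = 3 each). *Aph1b* and *Aph1c*, subunits of gamma-secretase, had log2 fold changes of 1.06 and 1.03 (adjusted p = 0.362 for both). They are near-identical neighbours whose reads may be split between them, so their separate values are uncertain. *Poglut1*, an enzyme that puts glucose on the Notch receptors, had a log2 fold change of -0.75 (SE 0.22, adjusted p = 0.284), from 55.1 ± 15.5 CPM in saline to 30.05 ± 1.16 in i.v. TLZ and 35.7 ± 1.94 in NanoTLZ (SD, n = 3 each). Saline and treated tumors did not overlap for *Poglut1* and for *Aph1c*, as for 5.47% of all tested genes. For *Aph1c* the nearest tumors were close, at 2.29 CPM in saline and 2.35 CPM in i.v. TLZ. *Dlk2*, a Delta-like protein without the usual receptor-binding domain, had a log2 fold change of -2.72 (SE 1.13, adjusted p = 0.359), but its saline mean of 11.1 CPM rested on A3688, at 32.3 CPM against 0.24 and 0.92 CPM in the other saline tumors.

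Further genes of the core pathway, picked by role, are given by their group means and SD. *Adam10*, the protease that cuts the receptor outside the cell, was at 216 ± 120 CPM with saline, 182 ± 58.8 CPM with i.v. TLZ and 170.2 ± 16.6 CPM with NanoTLZ (SD, n = 3 each). *Rbpj*, the DNA-binding partner, was at 156 ± 27.9, 116 ± 6.67 and 132 ± 27.2 CPM in the same order, and its co-activator *Maml1* at 57.1 ± 5.95, 47.6 ± 4.49 and 43.8 ± 4.67 CPM. Of the 8 genes of the nuclear complex, 8 had a negative log2 fold change with i.v. TLZ, 6 with NanoTLZ and 8 for the mean of both treated groups, with medians of -0.28, -0.25 and -0.26, and none had an unadjusted p under 0.05 against saline. Of all 15821 tested genes, 8298, 8874 and 8546 had a negative one. The 4 genes of ligand endocytosis had a positive log2 fold change in 4, 3 and 4 cases, with medians of 0.42, 0.12 and 0.23, and none had an unadjusted p under 0.05. *Lfng*, a glycosyltransferase that changes which ligand a receptor prefers, was at 91.6 ± 50.6, 50.4 ± 16.0 and 58.4 ± 13.3 CPM. *Mib1*, the ligase that ligand cells need to signal, was at 165 ± 83.3, 166 ± 25.7 and 179 ± 18.1 CPM, and the inhibitor *Numb* at 44.5 ± 19.7, 39.4 ± 11.8 and 41.0 ± 6.60 CPM. Of the targets outside the 10, *Nrarp*, a feedback inhibitor, was at 24.9 ± 18.2, 38.8 ± 9.79 and 26.2 ± 3.34 CPM. Its saline tumors A3673, A3685 and A3688 were at 12.1, 16.9 and 45.7 CPM, so the saline mean rested on A3688, and the 6 treated tumors, at 23.1 to 50.1 CPM, were above the other 2. *Hey2* was low, at 0.44 to 0.52 CPM in the group means, and its saline tumors were at 0.11, 0.24 and 0.96 CPM, highest in A3688. For none of these genes did the test pass 0.05 after adjustment.

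The genes whose log2 CPM was most like that of each member over the 9 tumors were looked up among all tested genes and are given as a description, since the highest of so many coefficients over 9 tumors is large for any gene. For *Notch1* they were *Btg3*, *Zfp704* and *Ptpn14* (Pearson's r = 0.96 to 0.95), and for *Notch2* *Txnl4b*, *Gbp2* and *Mef2d* (0.95 to 0.93). *Notch4* was most like *Epas1*, a hypoxia-inducible factor well known from endothelium, *Klhl36* and *Anxa8* (0.97 to 0.95). The nearest to *Jag1* were *Tmem63b*, *Nars* and *Ehd1* (0.94 to 0.93), and to *Jag2* *Cdyl*, *Rpp38* and *Gm17491* (0.97 to 0.96). *Dll1* had the lowest coefficients, 0.87 for each of *Gm28438*, *Nupl2* and *Gm26877*. *Dll4* was most like *Gm10080*, *Slfn1* and *Sparcl1* (0.95 to 0.94). For the targets, *Hes1* was nearest to *Gm12184*, *Zfp771* and *Ric8a* (0.97 to 0.96), *Hey1* to *Zfp317*, *Smg8* and *Dynll2* (0.96 to 0.93), and *Heyl* to *Cd163*, a macrophage scavenger receptor, *Sgcb* and *Krcc1* (0.94 to 0.92). Without A3688 all of these coefficients were still 0.86 or higher.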

How the data were processed

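RNA of 9 mammary tumors was sequenced and counted for the authors by Novogene. The deposited values are raw read counts per Ensembl gene, without normalization. The submitters' processing notes name mm10, TopHat2 and DESeq2. The counting program, the annotation and the strand setting are not given in the sources used here, so reads of a gene and of one on the opposite strand could not be told apart. The genes so overlapping *Notch1*, *Dll1* and *Dll4* had at most 156 counts over the 9 tumors.

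Tumors were grouped by their treatment label and columns matched by title. Total counts were 17538380 to 21194980. Symbols, positions and exon lengths came from GENCODE M21 (GRCm38), which matched 34490 of 35275 identifiers, and promoters from RefSeq.

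Genes were filtered with filterByExpr (minimum count 10, minimum total 15), normalized by TMM and tested in 1 fit to all 9 tumors with glmQLFTest in edgeR 4.0.16 (R 4.3.3), adjusted by Benjamini-Hochberg over 15821 genes. Standard errors were the log2 fold change divided by the root of F. Group comparisons were i.v. TLZ, NanoTLZ and the mean of both against saline, and NanoTLZ against i.v. TLZ. Log2 CPM used a prior count of 2. Correlations were tested by exact two-sided permutation over all orders of 9 tumors. The test was run on simulated data before use.

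Alternatives were DESeq2 1.42.0, RLE and upper quartile normalization, other filters, fits to the groups compared and each tumor left out in turn. The correlations with group means subtracted, without A3688 or without the 2 farthest tumors were chosen after seeing the data. The 10 genes and the pathway and marker lists were chosen with earlier results of these data known. Genes named were the 10 members, 10 pathway genes picked by role, 1 of which is not reported here, pathway genes called or, for the mean of both treated groups, the up to 3 with the smallest unadjusted p under 0.05 in each direction, the 3 genes most like each member, and markers beside a result. Figures used Python 3.11.15 and matplotlib 3.10.9.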

Additional observations from a re-analysis of the deposited data

How the results depend on the processing

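None of the 10 genes was called in any of the 4 comparisons under any alternative run, and 36 of 620 fold changes turned in sign, none of them of a called gene. The adjusted p of *Jag1* was 0.139 to 0.779 for i.v. TLZ, 0.303 to 0.901 for NanoTLZ and 0.124 to 0.528 for the mean of both over its alternatives, with a positive log2 fold change in all.

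The number of genes called over the whole table depended on the tool. DESeq2 on all 9 tumors called 194 genes for i.v. TLZ, 109 for NanoTLZ, 3 for NanoTLZ against i.v. TLZ and 276 for the mean of both, and on the groups compared 92, 171 and 21, against 0, 1, 0 and 3 in edgeR; the cause was not tested. With no filter edgeR called 5, 6 and 33 genes for i.v. TLZ, NanoTLZ and the mean of both. With at least 10 counts in every tumor it called 1 for the mean of both, and fitted to the groups compared 0 for NanoTLZ. With a tumor left out it called 0 to 3 genes for NanoTLZ and 0 to 18 for the mean of both, the highest without A3673.

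Small fold changes turned in sign, and so did the large ones of *Jag2* against saline. *Notch2* with i.v. TLZ became 0.068 with upper quartile normalization and 0.015 with the count minimum in every tumor, and *Dll1* with NanoTLZ became 0.023 with upper quartile normalization. With a tumor left out, log2 fold changes with i.v. TLZ ran from -0.23 to 0.37 for *Notch2*, -0.11 to 0.48 for *Notch4*, -1.81 to 1.23 for *Jag2*, -0.35 to 0.49 for *Dll4* and -0.21 to 0.12 for *Hes1*. With NanoTLZ they ran from -2.45 to 0.61 for *Jag2*, -0.61 to 0.30 for *Dll1* and -0.72 to 0.20 for *Hey1*. For the mean of both they ran from -0.017 to 0.59 for *Notch2*, -2.13 to 0.92 for *Jag2*, -0.22 to 0.24 for *Dll1*, -0.028 to 0.57 for *Dll4* and -0.24 to 0.040 for *Hes1*. Between NanoTLZ and i.v. TLZ they ran from -0.084 to 0.65 for *Notch1*, -0.79 to 0.11 for *Dll1*, -0.023 to 0.64 for *Dll4* and -0.34 to 0.28 for *Heyl*. *Jag2* turned only without A3688.

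Fits on the groups compared were not run separately for the mean of both, whose groups are all 9 tumors. No paired analysis was possible because no label links tumors across treatments. The lowest count of a member in a tumor was 108, and the common biological coefficient of variation over all tested genes was 49.8%.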
